A study of Homo sapiens with 6 samples.

Results

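Rebastinib (Reb) was developed as an inhibitor of ABL kinases and of the angiopoietin receptor TIE2, and in this study it was used as a CDK16 inhibitor. The 10 genes described here are kinases it is known to target, with close relatives: ABL1 and ABL2, the SRC-family members SRC, LYN, FYN and YES1, TEK (the gene of TIE2) with its relative TIE1, and the receptors FLT3 and KDR. They were taken by name, as known targets, out of 42978 gene symbols in the series. All 10 were listed in the knockdown experiment and 9 in the Reb experiment. FLT3 was not analysed here for the Reb libraries. The question was which of these kinases the cells transcribe at all, and whether their transcripts differed after CDK16 knockdown or Reb.

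MDA-MB-231 is a human line from a triple-negative breast cancer, and all 6 libraries carry that label. In the knockdown experiment, lines stably carrying a lentiviral scramble shRNA, CDK16-sh1 or CDK16-sh2 were compared. In the Reb experiment, cells without a hairpin in their labels received DMSO (the vehicle), 1 μM Reb or 5 μM Reb for 48 h. Each condition had 1 library, so no difference between 2 libraries below has a replicate check.

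ABL and SRC-family proteins are cytoplasmic tyrosine kinases. They pass signals from receptors and integrins to the actin skeleton and to growth pathways, and a docked tail or linker holds them inactive until they are released. Type II inhibitors such as Reb act on the protein by holding the kinase in an inactive shape, so the transcript level does not measure whether the kinase was inhibited. TEK and TIE1 form the receptor pair for angiopoietins and are best known from endothelial cells, where KDR is the main VEGF receptor. FLT3 is a receptor of early blood cells.

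Total counts were 25838443 to 31955119 in the knockdown libraries and 37655548 to 50303269 in the Reb libraries. The 5 μM library stood apart: its log2 levels correlated with those of DMSO at r = 0.842 across 15748 genes, while those of 1 μM did at r = 0.984. Mitochondrial genes took 16.4% of its counts, against 7.19% in DMSO and 8.30% in 1 μM. In CDK16-sh2 they took 16.2%, against 11.3% in scramble and 10.4% in CDK16-sh1. CDK16 itself had 3223 counts with scramble, 1360 with CDK16-sh1 and 846 with CDK16-sh2. Across genes, the change with CDK16-sh1 followed GC content (r = 0.443), less so with CDK16-sh2 (r = 0.119), and in reverse at 1 μM (r = −0.297) and 5 μM (r = −0.199). Markers of a mesenchymal-like line were abundant, with at least 34429 counts of VIM in every library. ESR1 and PGR, the hormone receptors, had at most 12 and 16. Other genes of the same list of 6 were present, and ERBB2 had 1349 counts with scramble and 3396 in DMSO. KRT19 had 8600 and 8689, and EPCAM 193 and 240. CDH1 had 7 in each.

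The promoter windows of 3 members are shown because they differ in how widely the gene was detected: ABL1 was present in all 6 libraries, while TEK and TIE1 differed sharply between the experiments. Each is the 250 bases before a RefSeq start (GRCh38.p14), 5′ to 3′ on the strand of the gene, with CG dinucleotides in capitals.
ABL1: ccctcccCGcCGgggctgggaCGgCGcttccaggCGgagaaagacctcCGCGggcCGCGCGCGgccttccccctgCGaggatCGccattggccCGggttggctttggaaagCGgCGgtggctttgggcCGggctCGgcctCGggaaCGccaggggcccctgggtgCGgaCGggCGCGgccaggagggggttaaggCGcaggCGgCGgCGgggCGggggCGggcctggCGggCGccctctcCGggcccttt
TEK: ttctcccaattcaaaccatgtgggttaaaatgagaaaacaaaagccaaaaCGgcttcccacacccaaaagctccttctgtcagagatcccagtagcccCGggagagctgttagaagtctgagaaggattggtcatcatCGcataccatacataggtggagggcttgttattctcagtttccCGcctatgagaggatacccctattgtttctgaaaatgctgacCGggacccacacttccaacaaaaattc
TIE1: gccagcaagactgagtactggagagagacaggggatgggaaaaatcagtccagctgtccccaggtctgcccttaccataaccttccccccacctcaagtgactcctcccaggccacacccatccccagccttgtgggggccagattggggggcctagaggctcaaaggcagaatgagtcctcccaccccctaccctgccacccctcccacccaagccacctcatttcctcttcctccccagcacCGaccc
The ABL1 window (chr9:130835004-130835253, plus strand) held 33 CG dinucleotides, and 91.9% of 35116 such windows held fewer. It lies inside the span of the gene, before an internal start. The TEK window (chr9:27108975-27109224, plus strand) held 5, and the TIE1 window (chr1:43300732-43300981, plus strand) held 1, which 6.06% of windows fall below. The median over all windows was 11. A second start of TEK had 1, and YES1, present in all 6 libraries, had 32. Other members did not sort this way. An internal start of ABL2 had 1, and FLT3, at the floor in the knockdown libraries, had 26. The starts of FYN ran from 45 to 0. RefSeq windows were matched for 8 of the 10 members. The series measured neither methylation nor factor binding at these windows.

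Nearly all target kinases were transcribed in these cells. The 6 cytoplasmic kinases stood above the receptors in the knockdown libraries, while in DMSO the receptor TIE1 lay among them. Expressed here means a mean of at least 1 CPM (a count scaled to library size) over the 3 libraries of an experiment. By this rule 8 of 10 genes were expressed in the knockdown experiment and 9 of 9 in the Reb experiment. Levels between genes are given as the authors' RPKM, which divides by gene length. In the scramble library, ABL1 was at 15.7 RPKM, YES1 at 12.1, ABL2 at 9.44 and FYN at 6.30. SRC and LYN followed at 3.96 and 3.52, and their counting intervals overlapped. KDR was at 0.829 and TIE1 at 0.214. TEK and FLT3 had 0 counts.

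In the DMSO library, the order was YES1 at 10.7, FYN at 10.5, TIE1 at 9.67 and ABL1 at 9.48 RPKM. YES1 and FYN could not be separated by their counting intervals, nor could FYN, TIE1 and ABL1 as neighbours in the order. ABL2 was at 5.59, SRC at 4.79 and LYN at 2.92. KDR at 0.985 and TEK at 0.587 came last. TIE1 thus ranked 8 of 10 in scramble and 3 of 9 in DMSO.

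**Figure D1:**
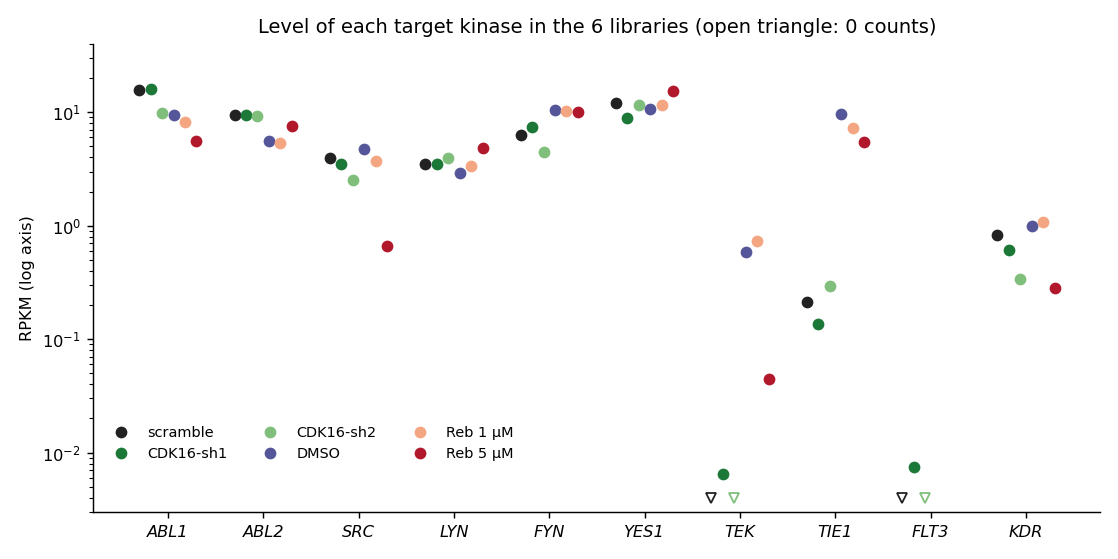
RPKM of each kinase (log axis) in the 6 libraries, 1 point per library and no error bars because each condition had 1 library. ABL1, ABL2, FYN and YES1 lie between 4.46 and 16.1 RPKM in every library. TIE1 is far higher in the Reb experiment, as TEK is in DMSO and at 1 μM. Within the Reb experiment SRC, KDR and TEK drop furthest at 5 μM, where ABL1, TIE1 and FYN are also at their lowest. FLT3 has no points for the Reb experiment.

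TIE1 and TEK were the members that separated the 2 experiments. TIE1 (chromosome 1, 43300993 to 43323108, plus strand, protein-coding) had 37 counts with scramble, 29 with CDK16-sh1 and 54 with CDK16-sh2. It had 3257 counts in DMSO, 2386 at 1 μM and 1378 at 5 μM. No value of the knockdown experiment came near the Reb experiment, and the difference was present between the controls. After joint scaling of the libraries, DMSO was 46.8-fold above scramble for TIE1 (95% counting interval 35.2 to 69.5).

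TEK (chromosome 9, 27109141 to 27230175, plus strand, protein-coding) had 0, 1 and 0 counts in the scramble, CDK16-sh1 and CDK16-sh2 libraries. It had 142 in DMSO, 174 at 1 μM and 8 at 5 μM. TEK was therefore not detectable with the hairpin lines at this depth. With scramble set at a floor of 3 counts, DMSO was 26.2-fold higher, a ratio that leaves out the counting error of DMSO. The other 7 members measured in both experiments differed between the controls by log2 values of −0.65 (ABL2) to 0.85 (FYN). Among all 15748 genes compared, 1.24% were at least 16-fold higher in DMSO.

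The experiments differed in other genes as well. MAGEA3, a cancer-testis antigen gene picked after its values were seen, had 0 to 1 counts in the knockdown libraries and 3976 to 4133 in the Reb libraries. VCX, another gene of testis picked in the same way, had 1 to 3 and 17180 to 27763. CHRDL1, which encodes an antagonist of bone morphogenetic proteins and was likewise picked, went the other way, with 1047 to 1924 and 14 to 44. The treatment, the hairpin vector, the culture and the library preparation cannot be told apart between the experiments, and whether the cells were of the same stock was not tested. In bulk RNA, fewer cells of a kind and less RNA per cell cannot be told apart either. For this reason members are compared below only with their own control.

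**Figure D2:**
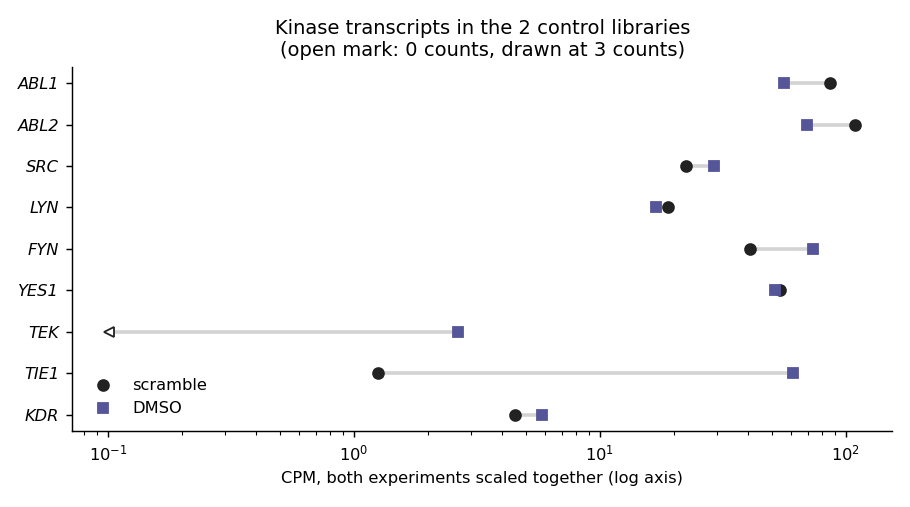
CPM of 9 kinases in the scramble and DMSO libraries after joint scaling (log axis), each symbol 1 library. TIE1 differs 46.8-fold and TEK runs off the floor of 3 counts, while the other 7 pairs lie close together.

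Endothelial markers were mixed between the controls. Of the 10 endothelial markers, 5 were at or under 3 counts with scramble, and of the 9 listed in the Reb experiment 3 were so in DMSO. Their summed level was 116 to 214 CPM in the knockdown libraries and 60.2 to 91.3 CPM in the Reb libraries, each experiment scaled by itself, and ESAM and ROBO4 made up most of it. VWF, CLDN5, ERG and SOX18 had 4, 3, 2 and 2 counts in DMSO, while ESAM had 2809, ROBO4 1836, EGFL7 393 and PECAM1 154. CDH5, the endothelial cadherin, had 4 counts with scramble and 122 in DMSO, and after joint scaling PECAM1 was 1.91-fold and EGFL7 1.54-fold of scramble in DMSO. ESAM was at 0.548-fold and ROBO4 at 0.799-fold. Their part in the TIE1 and TEK values was not tested. Of the 10 blood-cell markers, 7 were at or under 3 counts with scramble and 6 in DMSO. PTPRC had 0 counts with scramble and 2 in DMSO, and CD3E, GATA1 and TYROBP had 0 in both. Other markers of the list were present. CD68, which many cultured cells express, had 6258 counts with scramble and 17682 in DMSO, CSF1R had 46 and 70, and CD14 had 19 and 74.

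CDK16 knockdown left the ABL and SRC-family transcripts within 2-fold of scramble. At least 2-fold from scramble were 0 of 8 members with CDK16-sh1, against 11.2% of 15295 genes (6.86% lower and 4.33% higher). With CDK16-sh2 it was 1 of 8, KDR on the lower side, against 9.82% of genes (7.62% lower and 2.2% higher). Among so few genes these shares do not depart from the background. No member was called when both hairpins were tested together against scramble (edgeR quasi-likelihood test, p-values adjusted after Benjamini and Hochberg), where 0% of all genes were called and 382 genes but 0 members had an unadjusted p under 0.05. The smallest p among members was 0.303 for KDR (adjusted p = 0.9997). In this test the difference between the hairpins is the spread, which leaves 1 residual degree of freedom. CDK16 itself, at −1.52 and −1.82 with the hairpins, was not called either, so a member not called cannot be read as unchanged.

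ABL1 (chromosome 9, 130713946 to 130887675), the kinase of the BCR-ABL1 fusion of chronic myeloid leukaemia, had 2546, 3228 and 1718 counts in scramble, CDK16-sh1 and CDK16-sh2. On the log2 scale it differed from scramble by 0.07 (−0.01 to 0.14) with CDK16-sh1, negative (−0.15) once the trend on GC content and length was removed, and −0.46 (−0.55 to −0.37) with CDK16-sh2. The hairpins thus differed by −0.53 (−0.61 to −0.44). ABL2 (chromosome 1, 179099327 to 179229684), its closest relative, had 3234, 3996 and 3410 counts. Its values of 0.03 and 0.18 were small, and became −0.0013 and −0.01 when libraries were scaled by their totals or by RPKM. With the GC and length trend removed they were 0.42 and 0.45.

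SRC (chromosome 20, 37344685 to 37406050), the founding member of its family, had 662, 720 and 451 counts. It was lower with both hairpins, by −0.16 (−0.31 to −0.0010) and −0.45 (−0.62 to −0.27). LYN (chromosome 8, 55879813 to 56014168), a SRC-family kinase known from blood cells but present in many basal-like breast lines, had 562, 694 and 678. Its value was 0.03 with CDK16-sh1 and 0.38 (0.21 to 0.54) with CDK16-sh2. The CDK16-sh1 value was −0.002 by library totals or RPKM and 0.26 with the GC and length trend removed.

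FYN (chromosome 6, 111660332 to 111873452) and YES1 (chromosome 18, 721588 to 812546), the 2 most widely expressed relatives of SRC, went opposite ways with the 2 hairpins. FYN had 1207, 1756 and 909 counts, higher by 0.26 with CDK16-sh1 and at −0.30 with CDK16-sh2. YES1 had 1601, 1462 and 1633 counts, at −0.41 with CDK16-sh1 and 0.14 with CDK16-sh2. The second YES1 value turned negative (−0.06) with library totals or RPKM, and the first was −0.0026 with the GC and length trend removed. Only FYN kept opposite signs under every alternative. An antisense gene, RP11-769O8.1, overlaps YES1 and had 31, 17 and 23 counts. Reads of the pair cannot be told apart if they were counted without strand.

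KDR (chromosome 4, 55078477 to 55125589), the VEGF receptor, had 134, 122 and 58 counts. Against scramble its log2 value was −0.41 (−0.78 to −0.05) with CDK16-sh1 and −1.08 (−1.57 to −0.65) with CDK16-sh2, which is 2.11-fold lower. Removing the GC and length trend brought the second to −0.97, inside 2-fold. KDR passed 2-fold in the library with the raised mitochondrial share, whose part in it was not tested. TIE1, at 37, 29 and 54 counts, was at −0.59 (−1.38 to 0.11) and 0.63 (0.02 to 1.30), so the hairpins pointed in opposite directions on few counts. FLT3 (chromosome 13, 28003274 to 28100592), like TEK, had 0, 1 and 0 counts, and no fold is given for either.

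At 1 μM Reb no target kinase was 2-fold from DMSO, and at 5 μM 6 of 9 were, in both directions. At 1 μM it was 0 of 9 members, against 3.19% of 15655 genes (1.92% lower and 1.28% higher). At 5 μM SRC, TEK and KDR were at least 2-fold lower (3 of 9, against 27.2% of genes) and ABL2, LYN and YES1 at least 2-fold higher (3 of 9, against 23.6%). Either way the share of all genes was 50.8%, so passing 2-fold at 5 μM does not set these kinases apart. TEK met the expression rule only through DMSO and 1 μM, at 2.43 and 2.94 CPM against 0.296 at 5 μM. Its fall at 5 μM is therefore not independent of that rule. Tested together against DMSO, the doses gave 0 called members, where 0.0767% of genes were called (12 genes) and 228 genes but 0 members had an unadjusted p under 0.05. SRC had the smallest p among members, 0.350 (edgeR's quasi-likelihood test, adjusted p = 1).

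**Figure D3:**
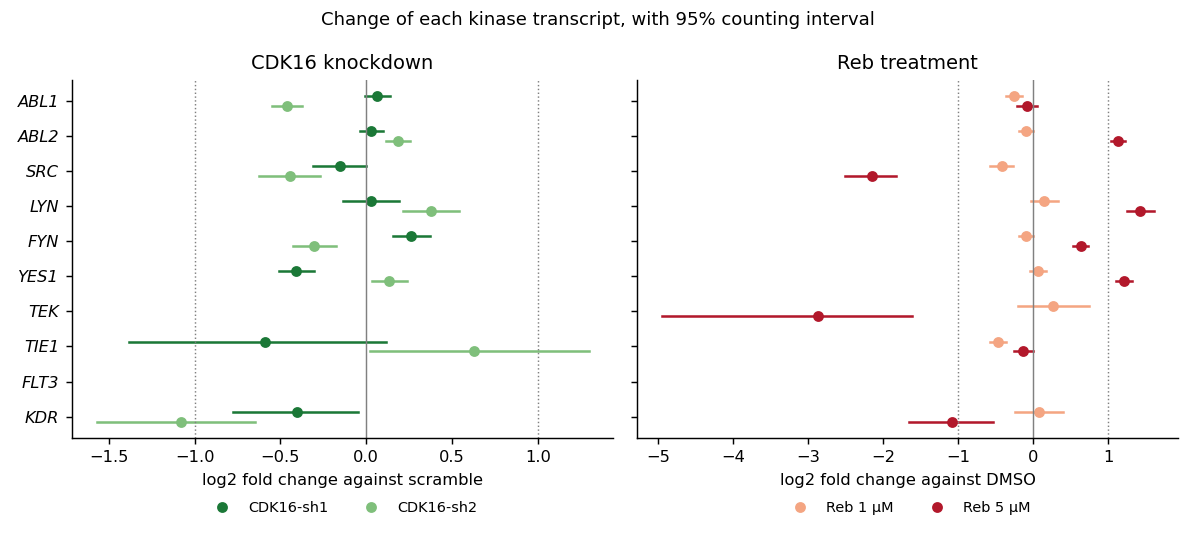
Log2 fold change of each expressed kinase against its own control, with 95% counting intervals as bars and dotted lines at 2-fold. In the knockdown experiment only KDR with CDK16-sh2 passes a dotted line, and in the Reb experiment SRC, TEK and KDR at 5 μM pass on the lower side and ABL2, LYN and YES1 on the higher.

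SRC was the clearest case. It had 1559 counts in DMSO, 1181 at 1 μM and 162 at 5 μM, and was lower at both doses. Against DMSO the log2 difference was −0.42 (−0.58 to −0.27) at 1 μM and −2.15 (−2.51 to −1.83) at 5 μM, which is 4.44-fold lower. The 5 μM value ranged from −2.84 with library totals to −1.45 with the GC and length trend removed. It stood at percentile 8.46 of all genes at that dose. With that trend removed, the 1 μM value was −0.245. The doses differed by −1.73 (−2.09 to −1.40).

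The other SRC-family members lay on the opposite side of DMSO at 5 μM. LYN had 908, 1023 and 1131 counts, a log2 fold change of 0.15 (−0.04 to 0.34) at 1 μM and 1.42 (1.25 to 1.61) at 5 μM. YES1 had 2752, 2920 and 2952, at 0.06 (−0.05 to 0.17) and 1.21 (1.10 to 1.32). With the GC and length trend removed, its 1 μM value was negative and its 5 μM value 0.80, inside 2-fold. FYN had 3920, 3735 and 2818, at −0.09 (−0.19 to −0.00070) and 0.63 (0.53 to 0.73). In the smaller 5 μM library the raw counts of LYN and YES1 were still above those of DMSO, so the scaling sets the size of their difference and not its sign, whereas for FYN it sets the sign. With library totals, the 5 μM values were 0.73 for LYN, 0.52 for YES1 and −0.06 for FYN, so none was past 2-fold. That scaling moved the median of all genes by −0.68.

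The ABL kinases differed from each other. ABL2 had 3730, 3537 and 3779 counts, at −0.10 (−0.20 to −0.01) and 1.13 (1.03 to 1.22). The latter was 0.44 with library totals and 0.92 without a filter on low counts. ABL1 had 2993, 2542 and 1309 counts, at −0.26 (−0.37 to −0.15) and −0.09 (−0.22 to 0.05). The 1 μM value was −0.07 with the GC and length trend removed. The 5 μM value moved to −0.77 with library totals and to 0.62 with the GC and length trend removed, so no direction can be given for ABL1 at 5 μM.

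Among the receptors, TEK and KDR were kept at 1 μM and low at 5 μM. TEK had 142, 174 and 8 counts, at 0.27 (−0.20 to 0.74) and −2.88 (−4.96 to −1.62), which is 7.34-fold lower on few counts. KDR had 310, 333 and 67 counts, at 0.08 (−0.25 to 0.40) and −1.09 (−1.66 to −0.54). Removing the GC and length trend brought KDR at 5 μM to −0.97. TIE1 had 3257, 2386 and 1378 counts, at −0.47 (−0.58 to −0.36) at 1 μM, the lowest member at that dose and −0.27 with the GC and length trend removed, and −0.13 (−0.26 to −0.0029) at 5 μM. The 5 μM value of TIE1 ranged from −0.82 to 0.58 over the alternatives, and its direction cannot be given. At 1 μM all 5 expressed endothelial markers were below DMSO, and 2 of 5 were at least 2-fold lower, against 1.92% of genes. At 5 μM they were mixed, with 3 of 5 at least 2-fold lower, against 27.2% of genes, and 1 higher, against 23.6%. PECAM1 had 154, 53 and 4 counts, CDH5 122, 24 and 11, and ROBO4 1836, 1002 and 92. ESAM was at 0.09 and EGFL7 at 1.19 at 5 μM. The part of these markers in the values of TEK and KDR was not tested.

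Modelling the dose as a slope, in place of a common effect of both doses, gave an adjusted p of at most 0.05 for 3 members, against 24.5% of all genes. They were SRC (adjusted p = 0.0124, edgeR's quasi-likelihood test), LYN (0.0460) and TEK (0.0468). This fit assumes that the effect grows with log2(dose + 1) and rests on 3 libraries. It also took in TEK, which met the expression rule only through DMSO and 1 μM.

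**Figure D4:**
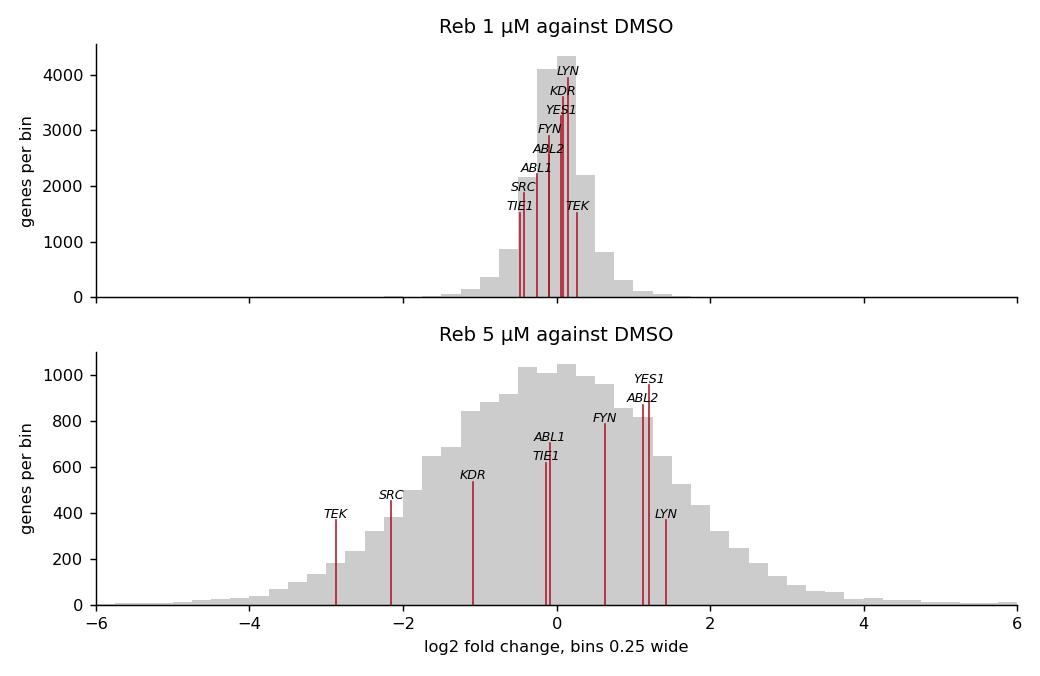
Number of genes per log2 fold change bin of 0.25 (grey) at 1 μM and 5 μM Reb, with each kinase marked by a red line whose height has no meaning. At 1 μM all 9 lie in the body of the distribution, and at 5 μM TEK and SRC lie in the lower flank and LYN, YES1 and ABL2 in the upper.

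Other SRC-family kinases were rare in these cells. LCK and FGR had at most 1 count in the knockdown libraries, and BLK and FRK at most 16, so none of them was expressed there. In the Reb experiment LCK alone of these passed, with 78, 82 and 6 counts. FGR had 0 counts in every Reb library.

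The regulators of the family were mixed. CSK, the kinase that switches SRC-family kinases off by phosphorylating the tail, had 2314, 5473 and 3353 counts in the knockdown libraries, at 0.96 with CDK16-sh1 and 0.64 with CDK16-sh2. It had 10777, 9327 and 1301 in the Reb libraries, at −0.23 and −1.94. PTPN11, the phosphatase SHP2, was at −0.92 and −0.60 with the hairpins. PTPRE, a receptor phosphatase that acts on SRC-family tails, had 1821, 973 and 62 counts, at −0.93 and −3.74 with Reb, while PAG1, the membrane anchor of CSK, was at 0.33 and 0.77. At 5 μM 3 of 8 regulators were at least 2-fold lower, against 27.2% of genes, and 1 higher, against 23.6%. Their median was 0.03 against −0.07 for all genes. With the hairpins 0 and 1 of 7 were at least 2-fold lower, against 6.86% and 7.62% of genes.

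Adaptors and substrates of the ABL and SRC kinases kept to a median of −0.24 at 5 μM, with 5 of 22 at least 2-fold lower, against 27.2% of all genes, and 3 higher, against 23.6%. PTK2B, a focal adhesion kinase of the same signalling route, was at −0.77 and −2.99 with Reb (498, 295 and 28 counts). STAT5A, a transcription factor that ABL signalling activates, was at −0.59 and −3.06 (664, 447 and 36 counts). On the higher side GRB2, an adaptor that links receptors to RAS and was picked after its values were seen, was at 0.04 and 2.42 (5653, 5923 and 14055 counts). With the hairpins, 0 and 1 of 21 were past 2-fold, against 11.2% and 9.82% of genes. CBL, a ubiquitin ligase that ends receptor and SRC signals, was at −0.54 and −0.44 with them. ABI2, an ABL interactor, was at −0.99 and −0.40.

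Of 9 ligands of the TIE, FLT3 and VEGF receptors, 5 were expressed in each experiment. ANGPT1, the activating ligand of TIE2, had 60, 184 and 110 counts, at 1.56 and 1.94 with Reb. ANGPT2, the other angiopoietin, had 36, 20 and 8. PGF, a VEGF relative, was at −0.28 and −3.80 with Reb (181, 151 and 5 counts). VEGFB was at 0.95 and 0.62 with the hairpins, and VEGFC at 0.87 and 0.02.

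Of the other VEGF receptors, 3 of 3 were at least 2-fold lower at 5 μM, where 27.2% of all genes were. They include NRP1, a co-receptor, at −0.01 and −1.05, and FLT1, with 65, 140 and 7 counts. Of other receptor kinases, 3 of 4 were, with PDGFRB at −0.49 and −2.43 and DDR2 at −0.48 and −1.01. MET, the receptor of hepatocyte growth factor and the most abundant of this list, had 4059, 4443 and 1978 counts and was at 0.11 and 0.07. NTRK3 and KIT had at most 2 counts in every library. With the hairpins, 0 of 2 VEGF receptors were past 2-fold, against 11.2% and 9.82% of genes. Of the other receptor kinases, 1 of 5 was at least 2-fold higher with CDK16-sh1, against 4.33% of genes. With CDK16-sh2 2 of 5 were at least 2-fold lower, against 7.62%. PDGFRB, on 36, 95 and 6 counts, was the higher gene with CDK16-sh1 and also among the lower with CDK16-sh2. The other lower gene was CSF1R, with 46, 64 and 13 counts. No list above holds a gene called by the test of both treated libraries.

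**Figure D5:**
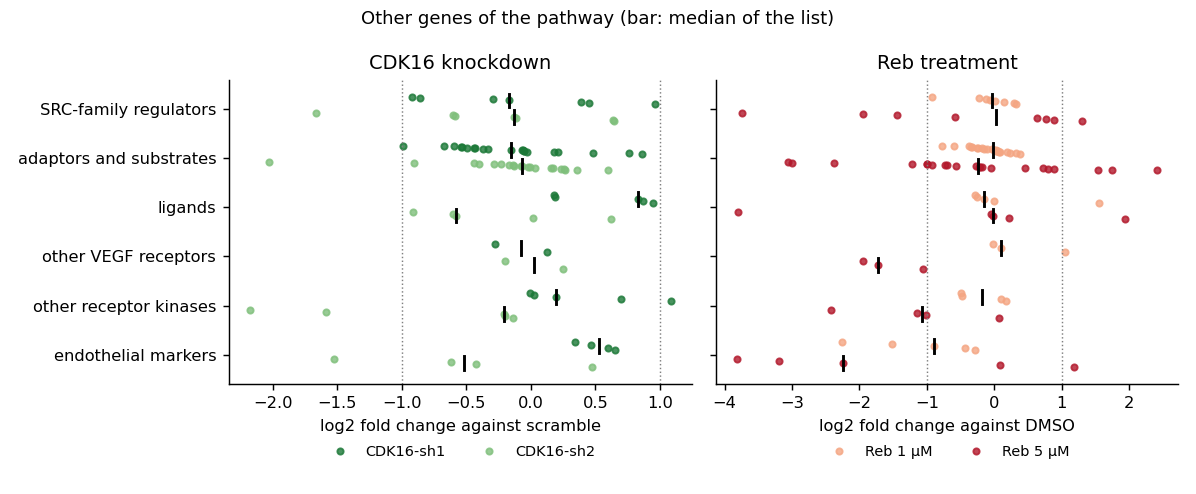
Log2 fold change of expressed genes in 6 lists around the kinases, 1 point per gene and treated library, with black bars at the list medians and dotted lines at 2-fold. At 5 μM the other VEGF receptors and most other receptor kinases lie below −1, while adaptors and regulators spread to both sides.

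Profiles were also compared over the 4 log2 fold changes. The gene nearest to SRC was GTF2IRD1 (distance 0.169), with −0.16, −0.45, −0.29 and −2.04 for CDK16-sh1, CDK16-sh2, 1 μM and 5 μM. For LYN it was ATP5J (0.0880), for YES1 CTAGE5 (0.0657), for FYN XRCC6 (0.121) and for ABL1 APIP (0.125). The nearest to KDR was C5orf22 (0.175) and to ABL2 AC008522.1 (0.0561). TIE1 had the most distant neighbour, RPL22L1 (0.293). Distances are Euclidean over 4 values, among 10553 to 10554 genes that averaged 5 CPM or more in both experiments.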

How the data were processed

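Messenger RNA of MDA-MB-231 cells was sequenced with a stranded kit on a HiSeq X 10. The authors deposited read counts per gene symbol, not normalized, and RPKM values that divide the same deposited counts by gene length and library total. The submitters' processing notes name Trimmomatic, featureCounts, Subread 1.5.1 and GRCh38. Aligner, annotation and strand setting are not given in the sources used here.

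Members and lists were chosen with earlier results of these data known. The genes named are the 10 members, per list and experiment up to 2 genes with the largest smaller change in the same direction with both treatments, and the nearest gene to each expressed member. Other genes named, including cell type markers, were chosen after their values were seen or as markers. Some genes of the lists are not reported here.

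Log2 fold changes were taken from edgeR 4.0.16 (R 4.3.3), with TMM-scaled CPM, 2 as the prior count and only genes averaging 1 CPM or more. A fold of 2 was taken as called. The test took both treated libraries against 1 control (quasi-likelihood, Benjamini-Hochberg, adjusted p of at most 0.05, fold of at least 2). On simulated data with 200 changed genes (log2 fold change of 3) it called 200 in each experiment at a coefficient of variation of 0.1, and 132 and 126 for the knockdown and Reb experiments at 0.4. In the simulation both treated libraries carried the same change. The real doses differed, with 3.19% of genes past 2-fold at 1 μM and 50.8% at 5 μM. The simulated calls therefore do not show what the test can find in these data. DESeq2 1.42.0 was an alternative. Because 1 library stood for each condition, the test of both treated libraries sets the change only against the difference between hairpins or doses. The fit of a dose slope sets it against the departure from a straight line.

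Intervals are 95% Clopper-Pearson and cover counting error only, since without molecular identifiers reads are no independent molecules. Low counts (1 to 20) were even in 65.1% to 68.7% of genes in the Reb table and in 38.9% to 40.5% in the knockdown table, as when both mates of a pair are counted, and the cause was not tested. Reb counts were therefore divided by 2 for the intervals, a choice made after seeing the data.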

Additional observations from a re-analysis of the deposited data

How the results depend on the processing

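Members past 2-fold numbered 0 with CDK16-sh1, 1 with CDK16-sh2 and 6 at 5 μM. At a 1.5-fold threshold they numbered 1 with CDK16-sh1 and 2 with CDK16-sh2. With CDK16-sh2 the count was 0 at a 4-fold threshold, with a mean of at least 5 CPM (KDR is then not tested) and with the GC and length trend removed. At 5 μM it was 3 with library totals, 3 with RPKM (0.1 added) and 2 at a 4-fold threshold. It was 4 with the GC and length trend removed, 5 without a filter and 4 with a mean of at least 5 CPM. TEK and KDR are not tested under the last of these. The test of both doses called no member, while dose as a linear term picked out SRC, LYN and TEK. The linear term was judged by adjusted p alone, without the 2-fold rule. Of 34 log2 fold changes, 34 stayed within their counting spread with DESeq2 size factors and 34 with a prior count of 0.5, and 28 without a filter, 21 with RPKM, 20 with library totals and 16 with the GC and length trend removed. No value past 2-fold changed direction, while 5, 5 and 4 smaller values did with library totals, RPKM and the trend removed. Library totals moved the median of all genes by −0.68 at 5 μM and by −0.19 with CDK16-sh2. No paired analysis was possible because each condition had 1 library and the labels share no replicate numbers. Depth limits TEK and FLT3 in the knockdown libraries, where 0 counts allow up to 3, and TIE1 there rests on 29 to 54 counts.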
